A study of Mus musculus with 11 samples.

Results

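Klk1b22 and Hal are autosomal mouse genes whose RNA was near absent from hearts of one inbred strain and present in hearts of another. They were chosen by symbol for near-zero values in one strain in at least 1 region, and both were found among the 15274 genes of the table. Klk1b22 lies on chromosome 7 and Hal on chromosome 10. RNA was sequenced from injured and uninjured heart pieces of C3H/HeJ (C3H) mice and of C57BL/6J (B6) mice, all 8 weeks old, in libraries titled day 7. The groups were C3H injured (n = 2), C3H uninjured (n = 3), B6 injured (n = 3) and B6 uninjured (n = 3), 11 libraries in which the injured and uninjured pieces of a mouse share its number. C3H mouse 3 has only an uninjured region. The labels do not say how the injury was made, and no treatment or allele other than strain and injury is named.

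Klk1b22 belongs to the glandular kallikreins, secreted serine proteases that lie in one dense gene cluster in the mouse. They are best known from the submandibular gland, where the family was found to include proteins that bind and process growth factors such as epidermal growth factor, and kallikreins that release kinins from kininogen. Klk1b22 itself is also called EGF-binding protein A. Hal encodes histidine ammonia-lyase (histidase), the enzyme that opens histidine breakdown by turning histidine into urocanate, and it is known mainly from liver and epidermis. Neither gene is a usual marker of the heart.

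The 250 bases just before the annotated start of each gene are shown because the RNA of both genes was near absent from B6 hearts, and this is the B6 sequence (RefSeq, GRCm38.p6, plus strand, both genes matched). For Klk1b22 the window is chr7:44112423-44112672 and for Hal chr10:93488518-93488767. Capitals mark TTTAAA or TATAA, AT-rich motifs related to the TATA box, searched on both strands.
Klk1b22: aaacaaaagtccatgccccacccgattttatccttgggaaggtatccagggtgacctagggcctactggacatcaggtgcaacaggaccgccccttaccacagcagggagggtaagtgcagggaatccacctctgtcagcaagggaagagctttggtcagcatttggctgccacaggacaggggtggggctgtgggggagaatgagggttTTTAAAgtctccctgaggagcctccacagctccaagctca
Hal: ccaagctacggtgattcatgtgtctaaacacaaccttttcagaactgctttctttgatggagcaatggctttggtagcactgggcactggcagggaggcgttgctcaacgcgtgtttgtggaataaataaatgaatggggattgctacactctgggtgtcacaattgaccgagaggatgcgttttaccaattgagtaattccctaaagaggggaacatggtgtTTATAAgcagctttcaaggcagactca
TTTAAA begins 40 bases before the start of Klk1b22, and was in the window of 12 of 14 glandular kallikrein genes and of 12.1% of 27025 genes with such a window. TATAA lies 26 bases before the start of Hal, overlapping its own copy on the other strand, and was in 23.5% of all windows. Both B6 windows thus hold such letters, which is a description and not a site.

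Klk1b22 has 13 close relatives in the reference, so the stretches in which it can and cannot be told from them matter for its counts. Over the 780 coding bases, identity to the relatives was 78.6% to 88.4%, the highest with Klk1b21. The coding stretch of 60 bases that differs most among Klk1b22, Klk1b21 and Klk1b24, the glandular kallikreins with values in the table, is shown first, and then the one that differs least (GENCODE M21 transcripts, chromosome 7, coding bases 511 to 570 and 712 to 771 of Klk1b22). Capitals mark bases that are not the same in all 3 genes.
Klk1b22: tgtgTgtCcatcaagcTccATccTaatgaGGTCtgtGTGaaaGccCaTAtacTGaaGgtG
Klk1b21: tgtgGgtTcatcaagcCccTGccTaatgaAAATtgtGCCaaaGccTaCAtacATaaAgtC
Klk1b24: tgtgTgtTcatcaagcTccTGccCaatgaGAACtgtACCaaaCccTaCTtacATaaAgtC
Klk1b22: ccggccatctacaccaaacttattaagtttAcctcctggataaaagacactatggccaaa
Klk1b21: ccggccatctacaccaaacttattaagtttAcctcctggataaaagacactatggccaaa
Klk1b24: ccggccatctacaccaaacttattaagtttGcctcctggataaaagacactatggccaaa
Klk1b21 and Klk1b24 each differ from Klk1b22 at 17 of 60 bases in the first stretch. In the second Klk1b21 is identical and Klk1b24 differs at 1 base. Of all 50-base windows of the Klk1b22 transcript, 13.3% occur unchanged in at least 1 relative, and of the 100-base windows 0%. The labels do not state how reads with several matches were handled, and sequence of the C3H cluster was not used here. Which of the cluster's genes the C3H reads came from was therefore not tested. No annotated gene overlaps Klk1b22 or Hal.

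Between 9699985 and 22138459 reads per library were assigned to genes. Normalised counts are these reads divided by the size factor of the library, and log2 differences are of the normalised count + 1. All 5 C3H libraries had high Xist (1840 to 8478) and low counts of the Y-linked gene Ddx3y (0.888 to 3.46), and all 6 B6 libraries the reverse (Xist 3.14 to 12.2, Ddx3y 1429 to 2221). Strain and sex can therefore not be told apart in any value below. Cardiomyocyte markers were abundant in every library, with a summed normalised count of 449510.1 to 481808 in C3H injured, 1438241 to 1751614 in C3H uninjured, 773039.7 to 1009914 in B6 injured and 1246409.8 to 1638274 in B6 uninjured libraries. In bulk tissue, fewer cells of a type and less RNA per cell cannot be told apart.

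Klk1b22 was read in every C3H library and in no B6 library. Its normalised counts were 32.0 and 145 in C3H injured regions of mice 1 and 2, and 69.3, 401 and 71.0 in C3H uninjured regions of mice 1, 2 and 3, against 0 in all 3 B6 injured and all 3 B6 uninjured regions. C3H and B6 libraries did not overlap in either region, and the gap lay between no reads at all and at least 37 reads in a library. These values rest on 242 reads in C3H injured and 533 in C3H uninjured libraries. The B6 zeros stand against 56858075 assigned reads in injured and 39450259 in uninjured libraries, which allow a mean normalised count of up to 0.819 and 1.38 (3 reads over the group, counting error only). With the reads of each group pooled and divided by its summed size factors, which weights deeper libraries more than the group means do, Klk1b22 was at least 115-fold higher in C3H than in B6 injured regions and at least 125-fold higher in C3H than in B6 uninjured regions, against 3 reads over the B6 group. The bounds were 39.1-fold without C3H injured library 2 and 50.9-fold without C3H uninjured library 2, and they ran up to 177-fold and 167-fold without another library. In injured regions 24.9% and in uninjured regions 7.63% of all 14751 genes tested were higher in every C3H library than in any B6 library. The members were picked on this contrast, so no test of it is given.

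**Figure D1:**
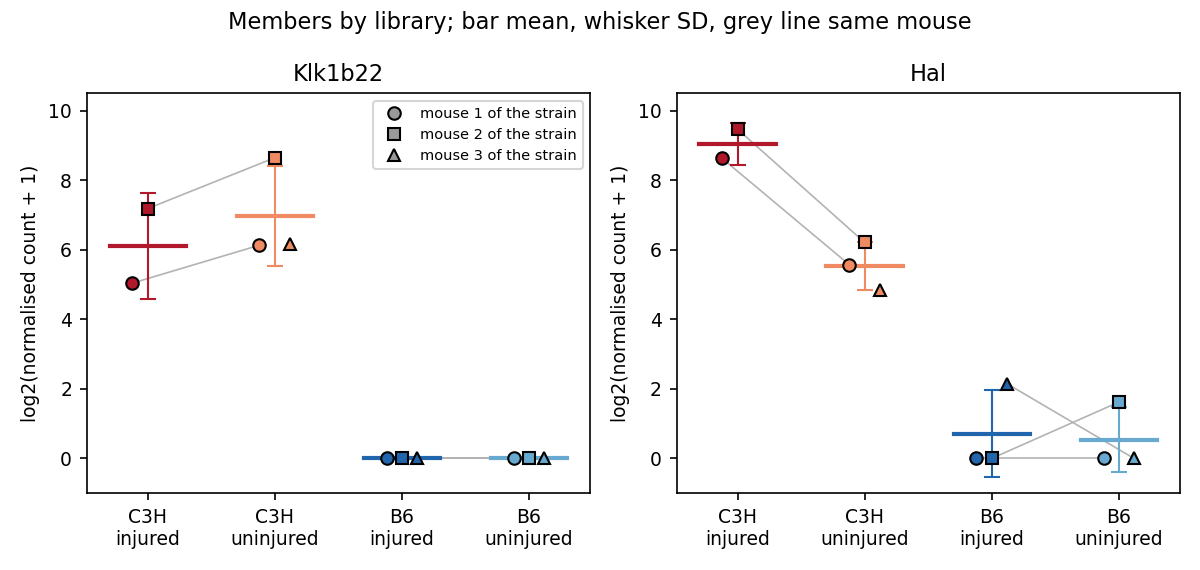
Each point is 1 library, as log2(normalised count + 1) of Klk1b22 (left) and Hal (right), with the group mean (bar), the SD (whisker) and a grey line joining the regions of a mouse. C3H mouse 2 (squares) is highest for Klk1b22 in both regions, all 6 B6 libraries are at 0, and Hal stands higher in C3H injured (395 and 709) than in C3H uninjured regions (27.5 to 73.3).

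Among C3H hearts Klk1b22 varied by mouse. Mouse 2 was the highest in both regions, 4.53-fold above the other injured library and 5.78-fold above the lowest uninjured one. In both C3H mice with 2 regions it was lower in the injured region, at 0.462 times the uninjured value in mouse 1 and 0.361 times in mouse 2. As groups the regions overlapped: Klk1b22 averaged 88.4 ± 79.8 in C3H injured (SD, n = 2) and 180.4 ± 191 in C3H uninjured regions (SD, n = 3). The log2 difference was -0.87 (SE 0.85, limma adjusted p = 0.461), and the injured and uninjured groups could not be told apart beyond their spread. Its sign rested on C3H injured library 1, without which the log2 difference was 0.20, and it was -0.04 without C3H uninjured library 2. In B6 hearts 0 reads in both regions leave no injury effect to give.

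The other glandular kallikreins in the table were read at far lower levels than Klk1b22. Klk1b21 had normalised counts of 0.865 and 3.53 in C3H injured and 1.98, 13.6 and 0.888 in C3H uninjured regions, against 0 in all B6 injured and 2.37, 0 and 0 in B6 uninjured regions. Klk1b24 had 1.73 and 7.07 in C3H injured and 0.990, 15.7 and 1.78 in C3H uninjured regions, against 0 in all 6 B6 libraries. For both genes mouse 2 was again the highest C3H mouse, at 1 to 15 reads per C3H library. Klk1b22 made up 92.5% to 96.4% of the reads of these 3 genes in every C3H library. Per kilobase of transcript, its normalised count was 469 in C3H uninjured library 2, where Klk1b21 had 15.6 and Klk1b24 17.9. The part that shared sequence plays in the Klk1b21 and Klk1b24 counts was not tested.

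**Figure D2:**
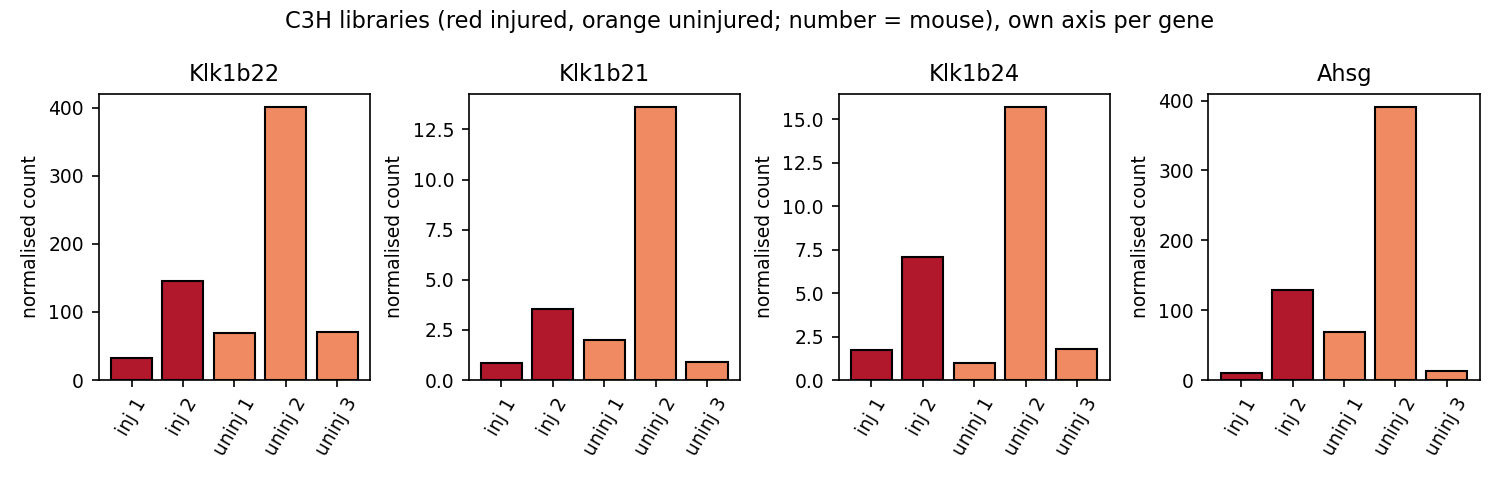
Bars are the normalised counts of Klk1b22, Klk1b21, Klk1b24 and the plasma protein gene Ahsg in each C3H library, with an own axis starting at 0 for each gene. In all 4 genes mouse 2 is the highest of its region, with Klk1b22 at 145 injured and 401 uninjured and Ahsg at 129 and 390.

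Of the 4 liver markers in the table, 3 were highest in the uninjured region of the same mouse, and Apoa2 was not. Ahsg, which encodes the plasma protein fetuin-A, had 10.4 and 129 in C3H injured and 68.3, 390 and 13.3 in C3H uninjured regions, against 3.93 to 26.9 in B6 injured and 16.6 to 27.0 in B6 uninjured regions. Ttr, the thyroid hormone carrier transthyretin, had 128 in C3H uninjured library 2 and 1.98 to 15.1 in the other C3H libraries, against 0 to 0.786 in B6 injured and 0 to 9.47 in B6 uninjured libraries. The table held 4 of the 8 liver markers searched, whose sum was 17.3 to 139 in C3H injured and 36.4 to 536 in C3H uninjured, against 14.9 to 42.4 in B6 injured and 36.5 to 66.4 in B6 uninjured libraries. Apoa1, the main protein of HDL, was at 0 in 9 libraries, and had 11.5 in C3H uninjured library 2 and 1.78 in library 3. Apoa2, another HDL protein, had 0.865 and 0.707 in C3H injured and 6.93, 6.28 and 6.22 in C3H uninjured, against 10.2 to 15.5 in B6 injured and 11.8 to 39.4 in B6 uninjured libraries. It was the one liver marker called, lower with injury in C3H (log2 -2.07, SE 0.60, limma adjusted p = 0.0219) and lower in C3H than in B6 injured regions (log2 -2.997, SE 0.60, limma adjusted p = 0.0132). Neither call held without C3H injured library 1 (adjusted p = 0.0837 for injury and 0.0550 for strain) or 2 (0.120 and 0.169), that for injury ended with a pseudocount of 5 (0.0979), and that for strain without B6 injured library 1 (0.0583). Of 8 salivary gland markers the table held Egf and Aqp5, with a sum of 63.6 to 87.3 in C3H injured and 59.7 to 119 in C3H uninjured, against 145 to 229 in B6 injured and 80.9 to 335 in B6 uninjured libraries. The part of these tissues in the Klk1b22 values was not tested.

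Among genes further along the kallikrein cluster, no difference between the strains passed the test. Of 26 tissue kallikrein genes searched by symbol the table held 7, and 4 besides Klk1b22 were tested (Klk8, Klk9, Klk10 and Klk14). None passed limma's threshold of 0.05 on adjusted p in any comparison. At an unadjusted p under 0.05 there were 2 for injury in C3H, 1 for C3H against B6 in injured regions and 0 in the other comparisons, and edgeR and DESeq2 called 0 throughout. Klk8, the protease neuropsin and the most counted of the 4, averaged 79.3 ± 48.1 in C3H injured (SD, n = 2) and 166 ± 69.2 in C3H uninjured (SD, n = 3), against 149 ± 43.3 in B6 injured and 222 ± 44.4 in B6 uninjured regions (SD, n = 3 each). Of the 10 nearest genes in the table, 7 were tested, among them Klk8, Klk9 and Klk10, which are counted above too. Between the strains 0 of 7 passed with limma, edgeR or DESeq2 in either region. At an unadjusted p under 0.05 there was 1 in injured regions, again Klk8, and 0 in uninjured regions. Among all genes tested, 7.06% passed in injured and 3.1% in uninjured regions. With injury in C3H, 1 of the 7 rose, near the share of all genes that rose (15.3%). It was the growth factor gene Clec11a (log2 2.54, SE 0.77, limma adjusted p = 0.0268), whose call was lost without C3H injured library 1 (log2 1.60, adjusted p = 0.245) and with only the C3H libraries in the fit (0.0897).

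Substrates, receptors and regulators tied to kallikreins were followed in a list of 15 genes, of which 13 were in the table and 11 tested. For injury in C3H, 3 of 11 rose and 0 fell (median log2 0.70, and 0.01 over all genes tested, of which 15.3% rose). Egfr, the EGF receptor, averaged 832 ± 85.9 in C3H injured (SD, n = 2) and 199 ± 74.6 in C3H uninjured regions (SD, n = 3), a log2 difference of 2.13 (SE 0.35, limma adjusted p = 0.00130). Leaving out any 1 of the 11 libraries did not end that call. Ace, a peptidase that degrades kinins and forms angiotensin II, rose by 1.61 (SE 0.37, limma adjusted p = 0.00697), a call that ended without C3H injured library 2 (adjusted p = 0.116, log2 1.00). The third, the inducible kinin receptor gene Bdkrb1, had 19.9 and 20.5 in C3H injured and 1.05 to 2.66 in C3H uninjured regions. It passed narrowly (log2 2.91, SE 0.98, limma adjusted p = 0.0415). It no longer passed without any one of the 5 C3H libraries (adjusted p 0.0670 to 0.191), without B6 injured library 1 (0.0546) with the mouse as a fixed block (0.0617), with a pseudocount of 0.5 (0.0656) or with quantile normalization (0.0761). For C3H against B6, the kinin-degrading peptidase gene Mme passed in injured regions (log2 1.48, SE 0.30, limma adjusted p = 0.0135), 1 of 11, where DESeq2 called 5 and 3.72% of all genes were higher. Mme no longer passed without B6 injured library 1 (adjusted p = 0.0536), C3H injured library 1 (0.0744) or C3H injured library 2 (0.146). In uninjured regions 0 of 11 passed with limma or edgeR, 2 had an unadjusted p under 0.05 and DESeq2 called 1. For injury in B6 0 of 11 passed with limma, edgeR or DESeq2 and 3 had an unadjusted p under 0.05, where 0.0136% of all genes passed. Egf, which encodes epidermal growth factor, did not pass, with 45.8 and 50.2 in C3H injured against 128 to 199 in B6 injured regions (log2 -1.61, SE 0.53, limma adjusted p = 0.0889).

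Hal was close to absent from B6 hearts, present in C3H uninjured regions and higher in C3H injured regions. Its normalised counts were 395 and 709 in C3H injured regions of mice 1 and 2, and 46.5, 73.3 and 27.5 in C3H uninjured regions of mice 1, 2 and 3. In B6 they were 0, 0 and 3.44 in injured and 0, 2.07 and 0 in uninjured regions of mice 1, 2 and 3. Every C3H value was above every B6 value, and every C3H injured value above every C3H uninjured one. The B6 values rest on 4 reads in 1 injured library and 1 read in 1 uninjured library, and those of C3H on 1461 reads in injured and 148 in uninjured libraries. From reads pooled in the same way, the ratio of C3H to B6 was 520.2 in injured (95% counting interval 203 to 1912) and 104 in uninjured regions (95% counting interval 18.4 to 4142). Without B6 uninjured library 2, which held the 1 read, uninjured B6 had no reads and the fold was at least 27.0. The strain contrast chose the gene and is not tested.

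The rule did not use the injury contrast within C3H itself. A gene can still be picked through its C3H injured values alone, so the p-value below may not be free of the choice. Within C3H, Hal rose with injury. It averaged 552 ± 222 in C3H injured (SD, n = 2) and 49.1 ± 23.0 in C3H uninjured regions (SD, n = 3), a log2 difference of 3.51 (SE 0.80, limma adjusted p = 0.00685). Within mice the injured region held 8.49 times the uninjured value in mouse 1 and 9.68 times in mouse 2. Among all genes tested 15.3% rose in C3H and 29.6% were higher in every injured than in any uninjured library, so that a rise as such was common. Hal no longer passed without C3H injured library 2 (log2 3.09, adjusted p = 0.0939) and without both regions of C3H mouse 2 (log2 3.43, adjusted p = 0.112). With only the C3H libraries in the fit, adjusted p was 0.00579. The 5 reads in B6 are too few to give an injury effect there, and whether the effect differs between the strains was not tested, since the choice of the gene fixes the B6 side.

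Cell markers moved in different directions with injury in C3H, where Hal rose. All 6 macrophage markers in the table rose with injury in C3H, where 15.3% of all genes rose and 15.4% fell, and their sum was 66299.8 and 113843 in C3H injured libraries 1 and 2, against 10303 to 16675 in C3H uninjured libraries. In B6, where Hal stayed near 0, this sum was 27269 to 36888 in injured and 17292 to 24146 in uninjured libraries. Cardiomyocyte markers fell in C3H in 7 of 8 genes, and fibroblast markers rose in 4 of 6. Epidermis markers, of which 3 of 8 were in the table, summed to 75.6 to 83.0 in C3H injured and 146 to 193 in C3H uninjured, against 61.3 to 93.0 in B6 injured and 92.3 to 108 in B6 uninjured libraries, lower in both C3H injured than in any C3H uninjured library. Mast cell markers summed to 337 to 343 in C3H injured and 182 to 353 in C3H uninjured libraries, and to 295 to 378 in B6 injured and 189.7 to 353 in B6 uninjured libraries. The part of macrophages or other cells in the Hal values was not tested.

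Of the genes searched for enzymes that follow Hal in histidine breakdown, only Amdhd1 was in the table, and it was little read. Uroc1 and Ftcd were not in it. The table held Amdhd1, which encodes imidazolonepropionase and is the next gene after Hal on the chromosome, at 9.51 and 9.19 in C3H injured and 0.990, 0 and 3.55 in C3H uninjured regions, against 0 to 3.26 in B6 injured and 1.18 to 4.15 in B6 uninjured regions. It was too low to be tested. Of 18 genes of histidine and histamine metabolism 15 were in the table, and 12 besides Hal were tested. For injury in C3H 3 of them rose and 3 fell (median log2 -0.49, and 0.01 over all genes), 6 of 12 where 30.7% of all genes passed, 15.3% higher and 15.4% lower. Cndp2, a dipeptidase that splits carnosine and related dipeptides, rose by 1.53 (SE 0.31, limma adjusted p = 0.00393), to 2741 ± 1044 in C3H injured (SD, n = 2), against 938 ± 264 in C3H uninjured regions (SD, n = 3). Carns1, the carnosine synthase, fell by 1.04 (SE 0.21, limma adjusted p = 0.00351), to 248 ± 17.2 in C3H injured (SD, n = 2), against 512 ± 4.55 in C3H uninjured regions (SD, n = 3). It was lower in both injured than in any uninjured library, as were 29.7% of all genes. Slc38a3, a transporter of glutamine and histidine, fell by 1.31 (SE 0.27, limma adjusted p = 0.00393). Without C3H injured library 2 the calls of Cndp2 (adjusted p = 0.0707) and Slc38a3 (0.0681) were lost, and without both regions of C3H mouse 2 those of Carns1 (0.0687) and Slc38a3 (0.0815). The others that passed were the histidine transporter gene Slc15a4 and the amino acid transporter gene Slc7a5, which rose, and the mitochondrial histidyl-tRNA synthetase gene Hars2, which fell. None of these 3 passed without C3H injured library 2 (adjusted p 0.102 to 0.259) or C3H uninjured library 3 (0.0540 to 0.0884), among others, and Slc7a5 also not with the mouse as a fixed block (0.0598). Hdc, the enzyme that makes histamine from histidine, had 74.4 and 48.1 in C3H injured and 62.4 to 70.1 in C3H uninjured regions. In B6 it had 41.6 to 78.6 in injured and 31.9 to 62.2 in uninjured regions. Its injured and uninjured groups overlapped within each strain, as did the strains in injured regions. In uninjured regions every C3H value was above every B6 value, as for 7.63% of all genes tested. That difference did not pass (log2 0.51, SE 0.35, limma adjusted p = 0.529).

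Between the strains, genes of the histidine list passed in injured regions only. In injured regions 2 of 12 genes were higher in C3H (Cndp2 and Slc15a4) and 2 lower (Carns1 and Slc38a3), beside 3.72% higher and 3.34% lower among all genes. None of the 4 passed without C3H injured library 2 (adjusted p 0.262 to 0.507). Cndp2, Slc15a4 and Carns1 also failed without any one of the 3 B6 injured libraries (0.0523 to 0.124), Carns1 with only the injured libraries in the fit (0.0579) or without C3H injured library 1 (0.113), and Cndp2 and Carns1 without some uninjured libraries (0.0501 to 0.0599). In uninjured regions 0 of 12 passed with limma, edgeR or DESeq2, and 1 had an unadjusted p under 0.05. For injury in B6 0 of 12 passed with the same tools and 3 had an unadjusted p under 0.05. The one neighbour of Hal that passed between the strains was lower in C3H. Of the 10 nearest genes 9 were tested and 1 passed in each region, where 1.32% of all genes were higher and 1.79% lower in C3H uninjured regions. It was Nedd1, a gene of the gamma-tubulin machinery of the spindle, with 300 and 309 in C3H injured and 260, 224 and 223 in C3H uninjured, against 738, 835 and 679 in B6 injured and 629, 1093 and 1105 in B6 uninjured regions. Nedd1 was lower in C3H by a log2 difference of -1.95 in uninjured regions (SE 0.23, limma adjusted p = 0.000751) and of -1.29 in injured regions (SE 0.26, limma adjusted p = 0.0133). Its C3H and B6 libraries did not overlap, as was so for 24.2% of all genes lower in C3H in injured and 9.27% in uninjured regions. In injured regions Nedd1 no longer passed without B6 injured library 2 (adjusted p = 0.0561), C3H injured library 1 (0.0666) or C3H injured library 2 (0.162). Lta4h, the leukotriene A4 hydrolase gene, lies on the same side of Hal as Nedd1 and is the nearest gene there. Its counts were 617 and 727 in C3H injured and 433 to 605 in C3H uninjured regions. In B6 they were 629 to 889 in injured and 587 to 861 in uninjured regions. With injury in C3H, 1 of the 9 neighbours rose, near the share of all genes that rose (15.3%). It was the transcription factor gene Elk3 (log2 0.73, SE 0.25, limma adjusted p = 0.0454), which no longer passed with edgeR (0.0533) or, among other libraries, without C3H injured library 1 (0.230) or 2 (0.120).

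**Figure D3:**
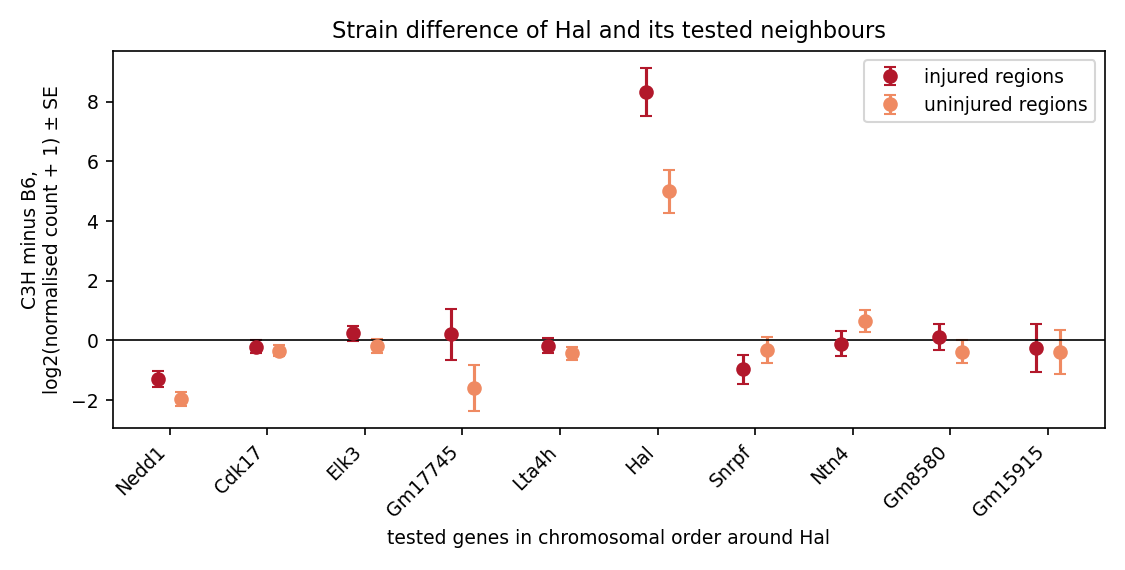
Points are the fitted C3H minus B6 differences of log2(normalised count + 1) with their SE in injured and uninjured regions, for Hal and its tested neighbours in chromosomal order. Hal was chosen for this difference, which depends on the added 1 since B6 held 5 reads of it, and Nedd1 is the one neighbour that passed, lower in C3H.

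How many other genes behave like the members was counted with one rule: at most 3 reads over the libraries of one strain in a region, and a mean normalised count of at least 50 in the other strain in that region. The rule found 16 genes, of which 3 were Y-linked and 13 autosomal. Of the 13, 9 were near absent in B6 and 4 in C3H in at least 1 region. Only 5 of the 13 were near absent in both regions of a strain. Klk1b22 met the rule in both regions. Hal lay just outside it on both counts, with 4 reads in B6 injured regions and a mean of 49.1 in C3H uninjured regions. H2-Ea-ps, the E-alpha gene of the major histocompatibility complex, known to carry a deletion in B6 and other strains of its haplotype, had 656 and 553 in C3H injured and 155, 124 and 194 in C3H uninjured regions, against 0 in all 6 B6 libraries. 2210407C18Rik showed the reverse, with 1.73 and 0.707 in C3H injured and 0, 2.09 and 2.66 in C3H uninjured, against 126 to 353 in B6 injured and 225 to 338 in B6 uninjured regions. Ifi44l, an interferon-induced gene, had 242 and 126 in C3H injured and 46.5, 34.5 and 76.4 in C3H uninjured regions, against 0 in all 6 B6 libraries. Like Hal, it was higher in both C3H injured than in any C3H uninjured library, as was H2-Ea-ps.

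**Figure D4:**
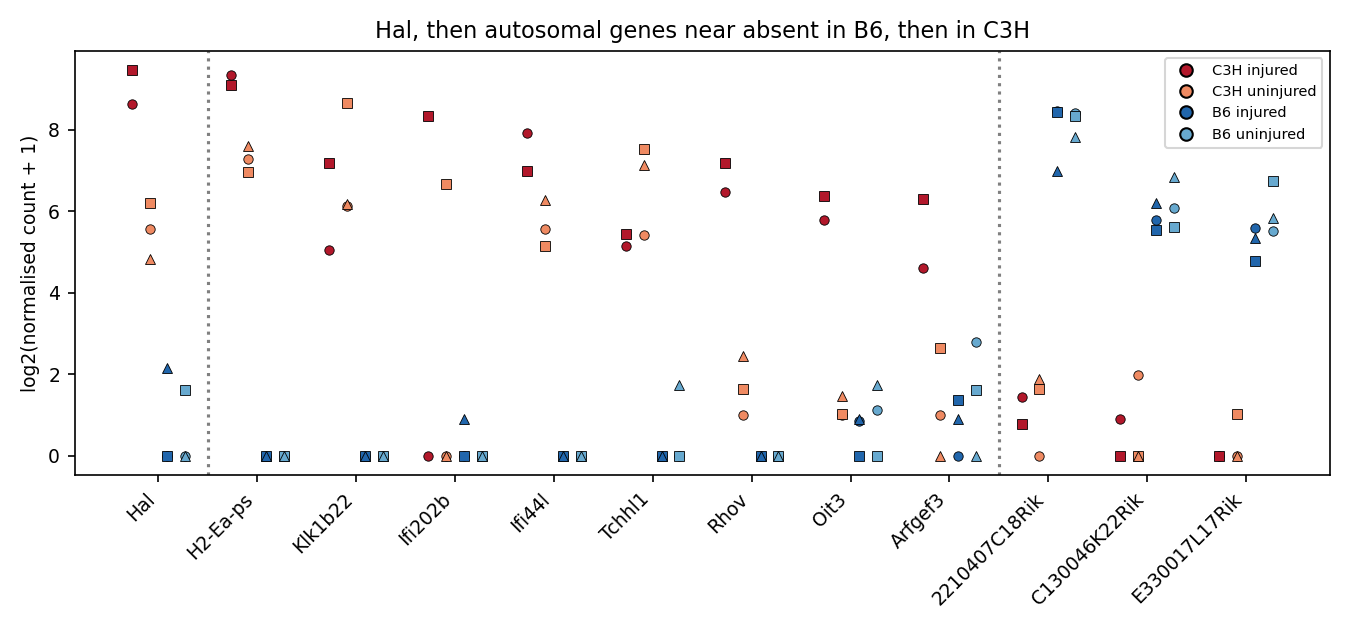
Each point is 1 library, as log2(normalised count + 1), for Hal, for 8 of the 9 autosomal genes near absent in B6 and for 3 of the 4 near absent in C3H, parted by dotted lines, with circles, squares and triangles for mice 1, 2 and 3 of a strain. Klk1b22 and H2-Ea-ps are at 0 in all 6 B6 libraries, and Ifi202b is above 0 only in both regions of C3H mouse 2 and in 1 B6 library.

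The genes most like each member over the 11 libraries were found by Pearson's r of log2 values, given as a description, since the points share the split between strains. For Klk1b22 they were Rergl (r = 0.99), Hbegf, Baiap2l1 and Nme7 (r = 0.97 to 0.98). Rergl, a gene of the Ras-like family, had 13.0 and 19.8 in C3H injured and 9.90, 36.6 and 16.9 in C3H uninjured regions, against 0 in all 6 B6 libraries. Hbegf, the heparin-binding EGF-like growth factor, had 714 and 1159.6 in C3H injured and 1209, 2138 and 1356 in C3H uninjured, against 297 to 344 in B6 injured and 316 to 411 in B6 uninjured regions. Mouse 2 was the highest C3H mouse of its region for both genes, as for Klk1b22. Both were picked by r over these same libraries, which favours genes that share that peak. For Hal they were Wdfy1 (r = 0.97), Msh5 (0.96), H2-Ea-ps (0.95), Col6a5 (0.95) and Xist (0.95). Msh5, a gene of meiotic recombination, had 90.8 and 189 in C3H injured and 69.3, 50.3 and 63.0 in C3H uninjured, against 3.14 to 12.9 in B6 injured and 3.55 to 12.4 in B6 uninjured regions. Col6a5, a collagen VI chain, had 506 and 611 in C3H injured and 158, 150 and 209 in C3H uninjured, against 25.3 to 59.3 in B6 injured and 9.47 to 23.6 in B6 uninjured regions. That Xist is among the 5 shows that this measure of likeness follows the split between the strains, and with it the sexes.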

How the data were processed

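RNA-seq libraries were made from total RNA, per the labels' protocols. The deposited signal holds reads counted per gene, which the authors scaled with 1 size factor for each library. The submitters' processing notes name TopHat2 2.0.11, HTSeq 0.6.1, DESeq and build mm9, which is of B6, so C3H reads over variants can be undercounted. The annotation, strandedness and filters behind them: not given in the sources used here. All values were whole multiples of 1 step per library (100% at a tolerance of 1e-06), which gave back the reads. Genes reaching 10 in at least 2 libraries (14751 of 15274) were fitted as log2(value + 1), which understates changes of low genes, with limma 3.58.1 in R 4.3.3 (4 group means, 7 residual degrees of freedom, mean-variance trend, Benjamini-Hochberg adjustment over all genes tested, two-sided threshold 0.05). The code was tested on simulated data. Alternatives included edgeR 4.0.16 and DESeq2 1.42.0 on the recovered reads. The mouse pairs regions, per the labels. Residuals of paired regions correlated at 0.305 and 0.575 in C3H and at 0.276, -0.0140 and 0.524 in B6. Whether the mice of a strain came from separate litters is not stated, so p-values measure the spread between these samples. Members, lists and tests were chosen with earlier results of these data known. Genes named are the members, list genes, the 5 nearest genes on each side, the 5 most alike by r, and the 6 most abundant of those near absent in a strain. The Y-linked gene Ddx3y was named outside this rule, as were Oit3 and Arfgef3, with their values known. Some genes that this rule names are not reported here. List genes were matched by symbol. Intervals are exact and, like limits of 3 reads, cover counting error only.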

Additional observations from a re-analysis of the deposited data

Results flagged for a closer look

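Cpm, a carboxypeptidase gene of the kallikrein-related list, had injury differences of opposite sign in the 2 strains, neither of which passed (limma adjusted p = 0.646 in C3H and 0.643 in B6). In both C3H mice with 2 regions it was lower in the injured region (log2 -0.44 and -0.07), and in all 3 B6 mice it was higher there (0.06 to 0.84). The mean changes were -0.25 in C3H and 0.33 in B6, which differ by -0.58 on the log2 scale, and this difference was not tested.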

How the results depend on the processing

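The rise of Hal with injury in C3H kept its direction in all 22 alternatives and passed in 20, lost only without C3H injured library 2 (3.09, with 3.93 the highest value without 1 library) and without both regions of C3H mouse 2 (3.43), an alternative chosen after the data were seen. With the mouse as a fixed replicate block it was 3.16 (adjusted p = 0.0139) and as a random block 3.37 (0.00259). The Klk1b22 difference in C3H missed the threshold in all 22 (-1.94 to 0.20 without 1 library, -1.28 and -1.03 with the replicate block). It turned positive (0.20) without C3H injured library 1. Strain folds of Klk1b22 without 1 library were all lower bounds against 3 reads. They ran from 39.1 to 177 in injured and from 50.9 to 167 in uninjured regions. Those of Hal ran from 339 to 649.6 in injured and from 27.0 to 129.6 in uninjured regions, the lowest uninjured one a bound.

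Counts of genes past the threshold moved more. Injury in B6 gave 2 genes (1 to 6 without 1 library, 45 with DESeq2, 20 and 16 with the fixed and random replicate block). Injury in C3H gave 4527 (1703 to 5015 without 1 library, 1371 without both regions of C3H mouse 2). C3H against B6 gave 458 in uninjured regions (213 to 788 without 1 library, 191 with only the groups compared, 916 with DESeq2) and 1042 in injured regions (100 to 1322 without 1 library, 2014 with DESeq2). Where a group is left with 1 library, the fit assumes that it varies like the others. With 5 B6 reads of Hal and 0 of Klk1b22, an injury effect in B6 cannot be read from the fit of either and is not reported, and pseudocounts, filters and tests do not touch ratios of reads. The cause of the changes was not tested.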

Other observations

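Ifi202b, an interferon-inducible gene, split the C3H mice themselves. It had normalised counts of 326 in the injured and 102 in the uninjured region of C3H mouse 2, against 0 in the injured region of mouse 1 and in the uninjured regions of mice 1 and 3. In B6 it had 0.860 in injured library 3 and 0 in the other 5 libraries. Serpina3c, a serine protease inhibitor also known as kallikrein-binding protein, was also high in this mouse, with 212 in its injured and 106 in its uninjured region. The other C3H libraries had 28.5 injured and 4.95 and 3.55 uninjured, and B6 libraries 25.8 to 47.1 injured and 12.4 to 20.0 uninjured. These are the regions in which Klk1b22 was highest.

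Oit3 and Arfgef3, both on chromosome 10 like Hal, were read at no more than 5.92 in uninjured regions of either strain. Oit3 had 54.5 and 82.0 in C3H injured and 0.990 to 1.78 in C3H uninjured, against 0 to 0.860 in B6 injured and 0 to 2.36 in B6 uninjured regions. Arfgef3 had 23.3 and 77.7 in C3H injured and 0 to 5.23 in C3H uninjured, against 0 to 1.57 in B6 injured and 0 to 5.92 in B6 uninjured regions. They met the rule of near absence in B6 in injured regions only. Hal differed from both in its higher level in uninjured C3H libraries, 27.5 to 73.3.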
